A study of Mus musculus with 12 samples.

Results

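The epidermal growth factor (EGF) family ligands and their ERBB receptors were described here through 10 genes, chosen by symbol from the 24964 genes of a count table over 12 libraries. The 6 ligand genes were Hbegf, Tgfa, Btc, Ereg, Egf and Areg, and the 4 receptor genes were Egfr, Erbb2, Erbb3 and Erbb4. RNA came from uterine tissue of pregnant mice at 13.5 days post coitum (dpc), with 4 libraries in each of 3 groups. All mice carried Myh11Cre, a Cre recombinase under control of the smooth muscle myosin heavy chain gene, which is active in vascular as well as uterine muscle. Controls carried Myh11Cre alone, the PGR-A OE group had the genotype Myh11Cre; LSLPGRA/+ and overexpressed isoform A of the progesterone receptor, and the PGR-B OE group had Myh11Cre; LSLPGRB/+ and overexpressed isoform B. The ages of the mice and whether each library came from a separate animal are not stated in the labels, so p-values measure the spread between these libraries, part of which may be technical.

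EGF family ligands are made as membrane-anchored precursors that proteases of the ADAM family release. The 6 ligands chosen here bind EGFR, and heparin-binding EGF (Hbegf), epiregulin (Ereg) and betacellulin (Btc) also bind ERBB4. ERBB2 has no known ligand of its own and pairs with the other receptors, and ERBB3 has a weak kinase and signals in pairs. In the mouse uterus Hbegf is best known from the epithelium around the implanting blastocyst, amphiregulin (Areg) from the progesterone response of the early pregnant epithelium, and HB-EGF is also a mitogen for smooth muscle cells.

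Library totals ran from 31872534 to 33078483 counts, and 15561 genes were tested. Pgr, the gene for the progesterone receptor, was higher in both overexpression groups with no overlap with control, at 106 to 142 CPM (scaled counts relative to library size) in control, 166 to 255 CPM with PGR-A OE and 188 to 248 CPM with PGR-B OE. These counts per gene do not separate the receptor's isoforms. The tissue held smooth muscle markers at 10367 to 19814 CPM summed over 8 genes, the highest in PGR-A OE replicate 4, and epithelial markers at 1392 to 2413 CPM summed over 10 genes. Decidual markers varied most, from 27.2 CPM with PGR-A OE replicate 4 to 5071 CPM in controls replicate 4. Since these are bulk samples, fewer cells of a type and less RNA per cell cannot be told apart.

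Hbegf (chromosome 18, 36504927 to 36515805 on the minus strand of GRCm38, a protein-coding gene that no other annotated gene overlaps) rose in PGR-A OE. Control replicates 1 to 4 held 4.22, 4.55, 5.18 and 3.57 CPM. PGR-A OE replicates 1 to 4 held 18.1, 15.0, 11.9 and 8.61 CPM. All 4 PGR-A OE libraries lay above all 4 controls, and the lowest of them was PGR-A OE replicate 4. The means were 4.38 ± 0.668 CPM in controls and 13.4 ± 4.08 CPM with PGR-A OE (SD, n = 4), from 558 and 1783 counts in all. This is a 3.06-fold rise, with a log2 difference of 1.61 (SE 0.26, 95% interval 1.05 to 2.17, adjusted p = 0.0147 from the edgeR quasi-likelihood test, Benjamini-Hochberg over all genes). Hbegf was the 1 of 9 tested members to pass in that comparison, where 0.482% of all genes tested passed as higher and 0.655% in either direction, and it ranked 21 by size among the 75 genes that rose. Of the 9 tested members 2 had positive differences, with a median of -0.13 beside 0.00051 over all genes. Leaving out control replicate 1 or control replicate 2 ended the call, with adjusted p = 0.0652 and 0.0610 by edgeR and log2 differences of 1.598 and 1.63.

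PGR-B OE replicates 1 to 4 held 4.42, 4.24, 8.38 and 5.45 CPM of Hbegf. Replicate 3 stood above the other 3 libraries of its group, and the group overlapped control. The mean was 5.62 ± 1.91 CPM (SD, n = 4), and the log2 difference from control was 0.36 (SE 0.26, 95% interval -0.20 to 0.92, adjusted p = 0.726 by edgeR). Without PGR-B OE replicate 3 that difference was 0.11. A fold change of up to 1.89 lies within the interval, so a smaller rise than in PGR-A OE could not be told from none.

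The difference between the overexpression groups was tested directly. Hbegf was lower in PGR-B OE than in PGR-A OE in every library, though the highest PGR-B OE value (8.38 CPM) was close to the lowest PGR-A OE value (8.61 CPM). The log2 difference was -1.25 (SE 0.25, 95% interval -1.80 to -0.70), with an unadjusted p of 0.000311 by the edgeR quasi-likelihood test, and it did not pass after adjustment (adjusted p = 0.134). In that comparison 0.116% of all genes passed in either direction and 2.35% were lower without overlap. The difference passed without PGR-A OE replicate 4 (-1.42, adjusted p = 0.0328), without PGR-B OE replicate 3 (-1.51, adjusted p = 0.0401), without replicate 4 of both control and PGR-A OE (-1.41, adjusted p = 0.0397) and by DESeq2 (adjusted p = 0.000995). PGR-A OE replicate 4 held the lowest Hbegf of its group and PGR-B OE replicate 3 the highest of its own. Leaving either out must widen the difference, so a pass without it is not further support. Over all 19 alternatives the adjusted p ran from 0.000995 to 0.360.

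**Figure D1:**
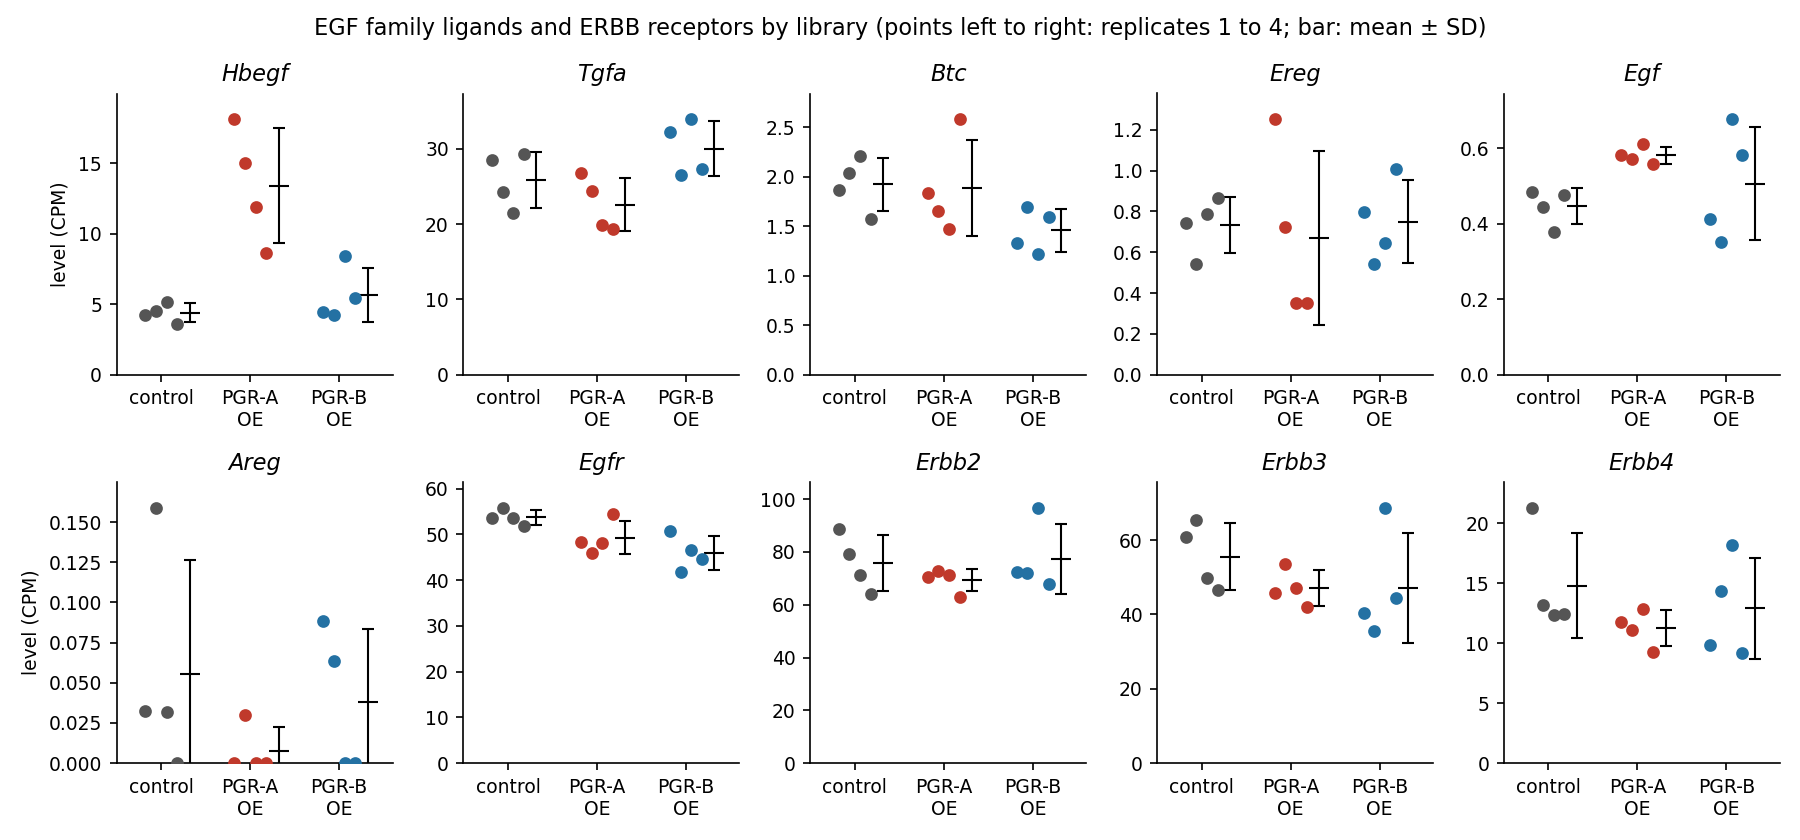
Level of each ligand and receptor gene in CPM on linear axes from 0, by group; each point is 1 library, ordered as replicates 1 to 4, and bars are mean ± SD (n = 4; drawn only above 0 for Areg). The 4 PGR-A OE libraries hold 8.61 to 18.1 CPM of Hbegf, above the 3.57 to 5.18 CPM of control, while most other members overlap between groups.

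Marker genes of other cell types are given beside this result. All 8 smooth muscle markers had positive differences in PGR-A OE (0 passed by edgeR or limma voom, and Des, Myh11 and Synm by DESeq2; median log2 difference 0.33), with sums of 10480 to 13633 CPM in controls and 13996 to 19814 CPM with PGR-A OE, which did not overlap. Within PGR-A OE the order was opposite, as replicate 1 had the highest Hbegf and the lowest smooth muscle sum (13996 CPM) and replicate 4 the lowest Hbegf and the highest sum (19814 CPM). In controls, replicate 3 had both the highest Hbegf (5.18 CPM) and the highest sum (13633 CPM). The lowest control Hbegf was in replicate 4 and the lowest control sum in replicate 1. In PGR-B OE the highest Hbegf was in replicate 3 (8.38 CPM, sum 11084 CPM) and the highest sum in replicate 4 (13465.5 CPM, Hbegf 5.45 CPM). All 5 mast cell markers were positive in PGR-A OE as well (0 passed by edgeR or limma voom, and Cma1 and Mcpt4 by DESeq2, with a median of 1.147). Their sums were 10.9 to 49.7 CPM in controls and 41.5 to 95.9 CPM with PGR-A OE, and again PGR-A OE replicate 4 held the highest sum. The 5 endothelial markers were also all positive (0 passed by edgeR or limma voom, and Vwf by DESeq2; median 0.17), at 452 to 532 CPM in controls and 482 to 568 CPM with PGR-A OE. Of the 5 fibroblast markers 3 were positive (median 0.02) and 1, the collagen gene Col15a1, passed as higher by edgeR, DESeq2 and limma voom, with overlapping sums of 2546 to 3107 CPM in controls and 2837 to 4274 CPM with PGR-A OE. In PGR-B OE against control, all 5 mast cell markers (median 0.29) and all 5 endothelial markers (median 0.05) were positive too. So were 2 of 8 smooth muscle markers (median -0.08) and 3 of 5 fibroblast markers (median 0.03), and the sums of all 4 lists overlapped control. There 0 passed by edgeR or limma voom, and Col15a1 by DESeq2. Between PGR-B OE and PGR-A OE, 0 of 8 smooth muscle markers were positive (median -0.40, with sums that did not overlap). So were 0 of 5 mast cell markers (median -0.77), 0 of 5 endothelial markers (median -0.16) and 2 of 5 fibroblast markers (median -0.15). The mast cell, endothelial and fibroblast sums overlapped. None of these markers passed by edgeR or limma voom, and Des and Synm were called as lower by DESeq2. No marker of these 4 lists was at 0 in a whole group. Their part in the Hbegf differences was not tested.

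**Figure D2:**
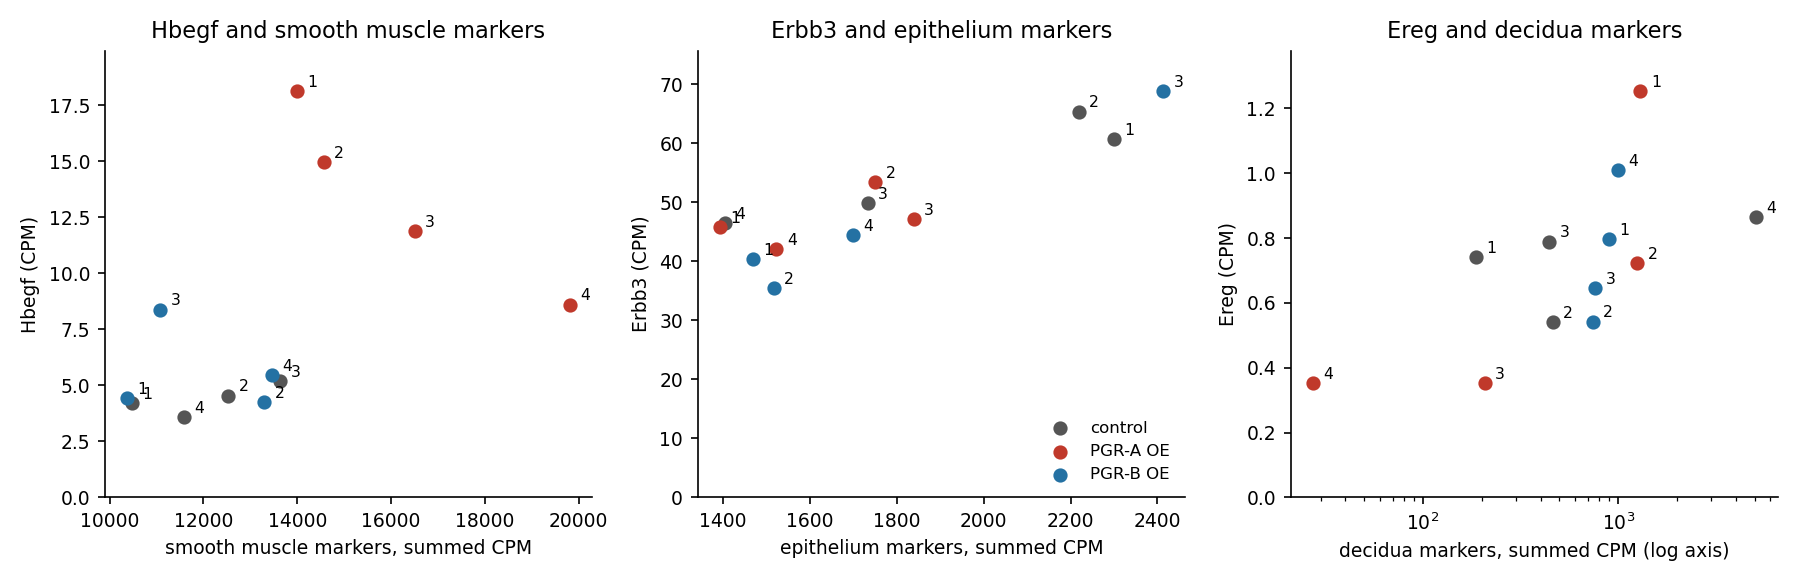
Hbegf against summed smooth muscle markers, Erbb3 against summed epithelial markers and Ereg against summed decidual markers (log axis), in CPM; each point is 1 library, numbered by replicate and coloured by group. The PGR-A OE libraries hold smooth muscle sums of 13996 to 19814 CPM with the lowest Hbegf at the highest sum, and the 3 libraries with the highest Erbb3 (60.7 to 68.8 CPM) have the highest epithelial sums.

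Tgfa (chromosome 6, 86195223 to 86275719), which encodes transforming growth factor alpha, another ligand of EGFR, was the most abundant ligand transcript of control tissue per length. Control replicates 1 to 4 held 28.5, 24.3, 21.4 and 29.3 CPM, PGR-A OE replicates 26.7, 24.4, 19.9 and 19.3 CPM, and PGR-B OE replicates 32.2, 26.6, 33.9 and 27.3 CPM. The PGR-A OE libraries overlapped both other groups, the highest of them (26.7 CPM) lying just above the lowest PGR-B OE library (26.6 CPM). No Tgfa difference passed by edgeR: -0.20 in PGR-A OE (adjusted p = 0.513), 0.21 in PGR-B OE (adjusted p = 0.668) and 0.41 between PGR-B OE and PGR-A OE (SE 0.13, 95% interval 0.12 to 0.70, adjusted p = 0.451). The last had an unadjusted p of 0.00928 by that test; in the same comparison 8.04% of all genes had an unadjusted p under 0.05.

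Divided by the gene length of the deposited table, the ligands can be set beside each other in CPM per kilobase. In control, Tgfa stood at 5.69 ± 0.813 CPM per kb, Hbegf at 1.84 ± 0.281, Btc at 0.669 ± 0.0934, Ereg at 0.177 ± 0.0334, Egf at 0.0932 ± 0.00998 and Areg at 0.0458 ± 0.0580 (SD, n = 4). The ranges of neighbours in this order did not overlap, apart from Egf and Areg. In PGR-A OE Hbegf stood at 5.64 ± 1.72 CPM per kb, beside Tgfa at 4.97 ± 0.783. Hbegf exceeded Tgfa per length in PGR-A OE replicates 1, 2 and 3 (ratios 1.30, 1.18 and 1.14) and not in replicate 4 (0.853), whereas the ratio was 0.234 to 0.463 in control and 0.263 to 0.473 in PGR-B OE. Hbegf made up 21.8% ± 4.45 of the summed ligand level per length in control, 48.1% ± 5.30 in PGR-A OE and 23.8% ± 4.85 in PGR-B OE (SD, n = 4). The summed ligand level was 7.95 to 9.003 CPM per kb in control and 8.98 to 14.6 in PGR-A OE, and these ranges overlapped slightly. In PGR-B OE it was 8.47 to 11.7 CPM per kb.

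**Figure D3:**
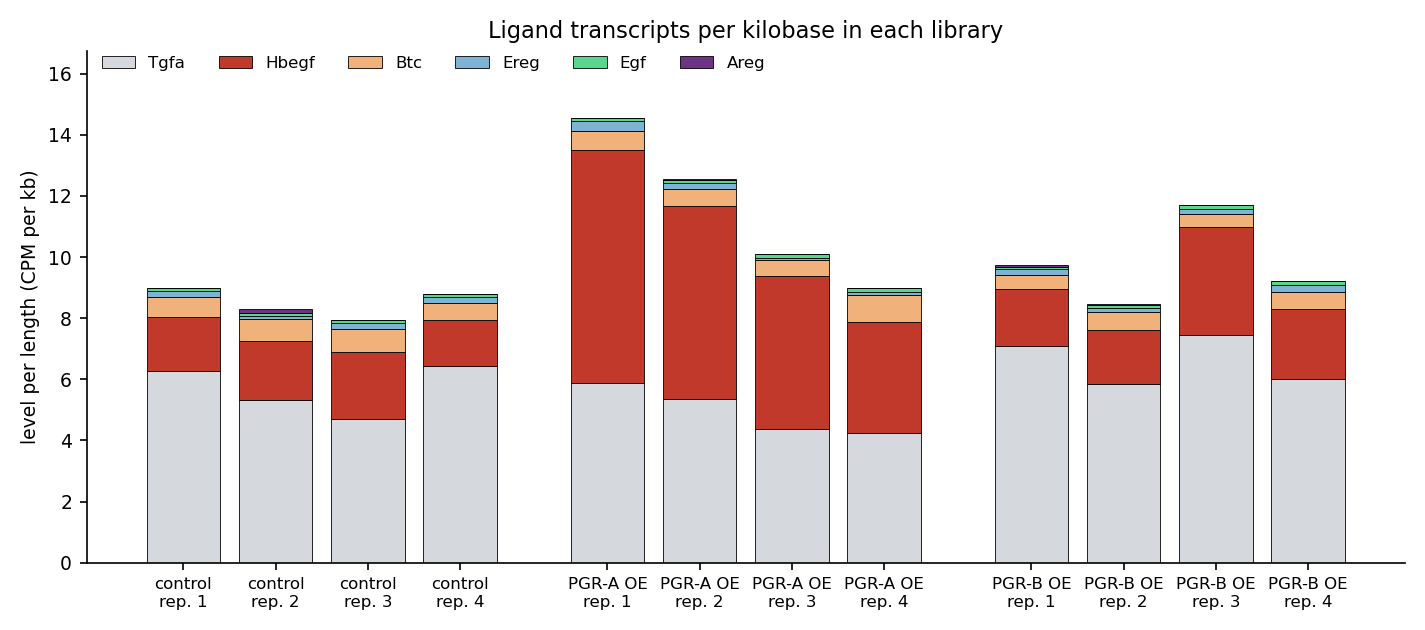
Stacked level of the 6 ligand transcripts in each library, in CPM per kilobase of gene length, with 1 bar for each library. Tgfa fills most of each control and PGR-B OE bar, and Hbegf fills 40.4% to 52.4% of the PGR-A OE bars.

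Btc (chromosome 5, 91357261 to 91402994), the betacellulin gene, lies with Ereg, Areg and the epigen gene Epgn within 375.5 kb of chromosome 5. Control replicates held 1.87, 2.04, 2.21 and 1.58 CPM, PGR-A OE replicates 1.84, 1.65, 1.48 and 2.58 CPM, and PGR-B OE replicates 1.33, 1.69, 1.22 and 1.59 CPM. The 3 groups overlapped, with PGR-A OE replicate 4 the highest library. The log2 difference from control was -0.03 in PGR-A OE (adjusted p = 0.968) and -0.40 in PGR-B OE (SE 0.21, 95% interval -0.85 to 0.06, adjusted p = 0.594), by the edgeR quasi-likelihood test.

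Ereg (chromosome 5, 91074622 to 91093646), for epiregulin, was thinly covered, with 11 to 43 counts a library. Its control replicates held 0.741, 0.541, 0.789 and 0.864 CPM and its PGR-B OE replicates 0.796, 0.543, 0.644 and 1.01 CPM. PGR-A OE libraries were the most spread, at 1.25, 0.722, 0.353 and 0.352 CPM, and held both the highest and the lowest values of all 12 libraries. Decidual markers in those PGR-A OE libraries summed to 1299, 1250, 207 and 27.2 CPM in the same order of replicates. In control replicates 1 to 4 they summed to 187, 463, 443 and 5071 CPM, a wide range beside the narrow one of Ereg there. In PGR-B OE replicates they summed to 894, 741, 761 and 999.9 CPM. The part of decidual tissue in the spread of Ereg was not tested. Ereg did not pass in PGR-A OE (-0.13, 95% interval -0.97 to 0.71, adjusted p = 0.911) or in PGR-B OE (0.03, 95% interval -0.81 to 0.87, adjusted p = 0.992) by edgeR, and fold changes from 0.511 to 1.64 lie within the first of these intervals.

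Egf (chromosome 3, 129677565 to 129755316), the founding ligand of the family, had 11 to 21 counts a library. In control it was at 0.484, 0.445, 0.379 and 0.476 CPM and in PGR-A OE at 0.583, 0.571, 0.610 and 0.558 CPM, so that the 2 groups did not overlap. With Hbegf, that made 2 of 9 tested members higher without overlap in PGR-A OE, where 5.01% of all genes tested were. The log2 difference of Egf was 0.38 (SE 0.24, 95% interval -0.15 to 0.90) and did not pass (adjusted p = 0.479 by edgeR). PGR-B OE libraries, at 0.413, 0.351, 0.677 and 0.581 CPM, covered the range of both other groups.

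Areg (chromosome 5, 91139599 to 91148432), for amphiregulin, gave 13 counts over all 12 libraries and none in 6 of them, and was too low to test. It had 7 counts in control, 5 of them in replicate 2, then 1 in PGR-A OE and 5 in PGR-B OE. At this depth a count of 0 allows up to 0.0874 to 0.0967 CPM, depending on the library (3 counts). The ratio of PGR-A OE to control was 0.137, with an exact 95% interval of 0.00305 to 1.07 that covers counting error only, so no difference was detectable.

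Receptor transcripts outweighed ligand transcripts per length. In control, Erbb2 stood at 15.2 ± 2.10 CPM per kb, Erbb3 at 13.8 ± 2.22, Egfr at 8.34 ± 0.257 and Erbb4 at 1.23 ± 0.362 (SD, n = 4). Erbb2 and Erbb3 overlapped, and so did Erbb4 and the ligand Hbegf, which came just above it. Summed over the 4 receptors the level was 33.5 to 42.9 CPM per kb in control, 32.3 to 35.9 in PGR-A OE and 30.9 to 45.2 in PGR-B OE. No receptor gene passed in any comparison by edgeR, DESeq2 or limma voom.

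Egfr (chromosome 11, 16752203 to 16918158), is the receptor that binds all 6 ligands. Control replicates held 53.5, 55.9, 53.6 and 51.8 CPM, PGR-A OE replicates 48.4, 46.0, 48.2 and 54.4 CPM, and PGR-B OE replicates 50.6, 41.8, 46.6 and 44.5 CPM. Every PGR-B OE library lay below every control, and PGR-A OE overlapped control through replicate 4 and PGR-B OE through replicates 1, 2 and 3. In PGR-B OE the log2 difference was -0.23 (SE 0.07, 95% interval -0.38 to -0.07), with an unadjusted p of 0.00862 by the edgeR quasi-likelihood test and an adjusted p of 0.347. It was the 1 member with an unadjusted p under 0.05 and the 1 without overlap in that comparison, where 9.28% of all genes had such a p, 2.6% were lower without overlap and 0.308% passed in either direction. In PGR-A OE the difference was -0.12 (adjusted p = 0.433), and between the overexpression groups -0.10 (adjusted p = 0.776), by edgeR.

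Erbb2 (chromosome 11, 98412470 to 98437716), the partner receptor without a ligand, was at 88.6, 79.2, 71.1 and 64.3 CPM in controls, 70.4, 72.7, 71.4 and 63.1 CPM with PGR-A OE and 72.5, 72.1, 96.8 and 67.7 CPM with PGR-B OE. The groups overlapped and PGR-B OE replicate 3 was the highest library. Differences from control were -0.13 in PGR-A OE (95% interval -0.39 to 0.14, adjusted p = 0.648) and 0.03 in PGR-B OE (95% interval -0.23 to 0.29, adjusted p = 0.969) by edgeR. The first was -0.04 without control replicate 1, and the second turned to -0.10 without PGR-B OE replicate 3.

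Erbb3 (chromosome 10, 128567523 to 128589652), a receptor for neuregulins, was at 60.7, 65.3, 49.8 and 46.5 CPM in controls, 45.8, 53.5, 47.1 and 42.0 CPM with PGR-A OE and 40.3, 35.5, 68.8 and 44.4 CPM with PGR-B OE. Again PGR-B OE replicate 3 was the highest of all, followed by control replicates 2 and 1. Those were also the libraries with the highest epithelial marker sums, at 2413, 2219 and 2300 CPM against 1392 to 1838 CPM in the other libraries. Of the 10 epithelial markers 2 were positive in each overexpression group against control (0 passed by edgeR, DESeq2 or limma voom; median -0.19 in PGR-A OE and -0.10 in PGR-B OE), and their part in the Erbb3 values was not tested. Erbb3 differed from control by -0.24 in both PGR-A OE (adjusted p = 0.561) and PGR-B OE (adjusted p = 0.759; -0.47 without PGR-B OE replicate 3), by edgeR.

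Erbb4 (chromosome 1, 68032186 to 69108059), which binds neuregulins and several EGFR ligands, was at 21.3, 13.2, 12.3 and 12.4 CPM in controls, where replicate 1 stood apart. PGR-A OE libraries held 11.8, 11.1, 12.9 and 9.28 CPM and PGR-B OE libraries 9.88, 14.4, 18.2 and 9.15 CPM, so all groups overlapped. Differences from control were -0.39 in PGR-A OE (95% interval -0.90 to 0.11, adjusted p = 0.442) and -0.20 in PGR-B OE (95% interval -0.70 to 0.31, adjusted p = 0.856) by edgeR. Without control replicate 1 they were -0.16 and 0.04.

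**Figure D4:**
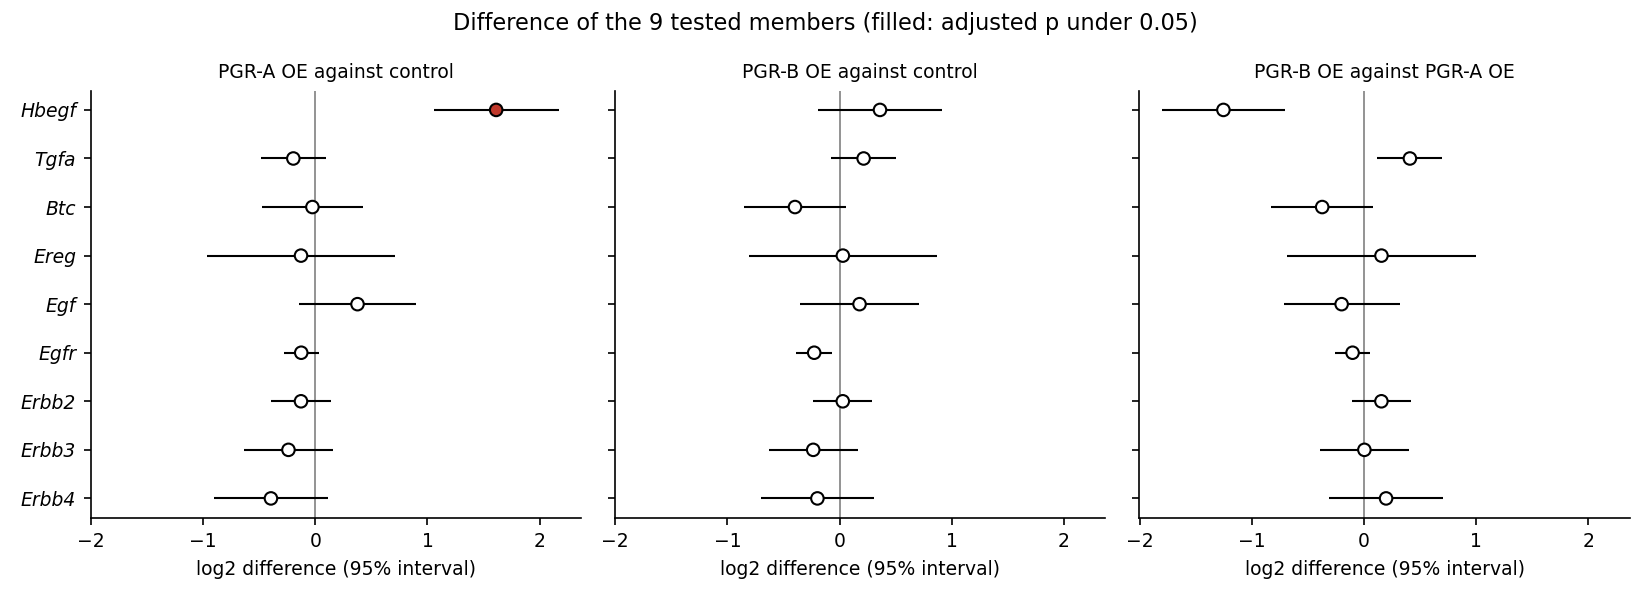
Log2 difference of the 9 tested members in the 3 comparisons, with unadjusted 95% intervals as lines; filled points have an adjusted p under 0.05. Hbegf in PGR-A OE against control (1.61) is the filled point, and the comparisons share samples, so the panels are not independent.

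The pathway around these genes was read from 5 lists with 67 genes, of which 65 could be tested. By the edgeR quasi-likelihood test 0 of the 65 passed in any of the 3 comparisons. Unadjusted p under 0.05 was reached by 5 higher and 6 lower genes in PGR-A OE, 1 higher and 4 lower in PGR-B OE and 2 higher and 1 lower between PGR-B OE and PGR-A OE, where 15.4%, 9.28% and 8.04% of all genes tested had such a p. No listed gene passed by limma voom either, whereas DESeq2 called Adam10 as lower and Spry2 as higher in PGR-A OE, Spry2 as higher in PGR-B OE and Nrg4 as higher in PGR-B OE than in PGR-A OE. DESeq2 was also the tool with the most calls, with 571 of all genes in PGR-A OE, 217 in PGR-B OE and 124 between the overexpression groups.

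Of the other EGF family ligands, 3 of 5 could be tested, and Epgn and Nrg3 were too low. Nrg4, a neuregulin that binds ERBB4, was at 4.77 ± 0.901 CPM in controls, 3.40 ± 0.746 CPM with PGR-A OE and 5.93 ± 1.26 CPM with PGR-B OE (SD, n = 4). PGR-B OE lay above PGR-A OE without overlap, and the difference of 0.80 did not pass by edgeR (adjusted p = 0.267) but did by DESeq2. The share of all genes higher without overlap in that comparison is not reported here. Nrg2 was at 1.73 ± 0.267 CPM in controls and 3.00 ± 1.32 CPM with PGR-A OE (0.80, adjusted p = 0.229), and Nrg1 at 5.81 ± 1.90 and 6.14 ± 1.99 CPM (0.08, adjusted p = 0.925), by edgeR.

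All 9 genes of ligand shedding were tested, with a median log2 difference of 0.04 in PGR-A OE and -0.07 in PGR-B OE, beside 0.00051 and -0.0052 over all genes. Adam10, a protease that releases betacellulin and EGF, was at 145.6 ± 7.51 CPM in controls and 125.7 ± 4.33 CPM with PGR-A OE, with no overlap (-0.21, adjusted p = 0.143 by edgeR). Adam17, the main protease for HB-EGF, TGF-alpha and amphiregulin, was at 69.6 ± 1.79 and 64.0 ± 2.32 CPM, also with no overlap (-0.12, adjusted p = 0.385). Rhbdf1, which helps ADAM17 to mature, was at 64.1 ± 2.89 and 74.0 ± 3.40 CPM (SD, n = 4, as for both proteases). It was higher with no overlap (0.21, adjusted p = 0.342 by edgeR). None of these 3 differences passed by edgeR. Of all genes tested, 5.01% were higher without overlap in PGR-A OE than in control, and the share that was lower is not reported here.

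Among the 16 feedback inhibitors of the receptors and of ERK signalling the medians were 0.05 in PGR-A OE and -0.0045 in PGR-B OE. Spry2, a sprouty inhibitor of receptor tyrosine kinase signalling, was at 18.4 ± 0.564 CPM in controls, 22.0 ± 1.22 CPM with PGR-A OE and 22.8 ± 1.72 CPM with PGR-B OE (SD, n = 4). Both overexpression groups lay above the same controls without overlap, and neither difference passed by edgeR (0.26, adjusted p = 0.133, and 0.31, adjusted p = 0.147), while both did by DESeq2. In PGR-A OE 5.01% of all genes tested were higher without overlap, and the share for PGR-B OE is not reported here. Spry1 differed by 0.29 in PGR-A OE (adjusted p = 0.281). Errfi1, an inhibitor that binds the ERBB kinases, was at 251 ± 15.9 CPM in controls, 254 ± 101 CPM with PGR-A OE and 326 ± 38.5 CPM with PGR-B OE (0.38 in PGR-B OE, adjusted p = 0.609), by edgeR. Its PGR-B OE libraries also lay above control without overlap. Lrig1, which promotes breakdown of ERBB receptors, was at 53.9 ± 4.89 CPM in controls and 48.2 ± 6.72 and 47.2 ± 2.18 CPM in the PGR-A OE and PGR-B OE groups.

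The 25 genes of proximal signalling, from adaptors to ERK kinases, had medians of -0.01 in PGR-A OE and -0.05 in PGR-B OE. Nras (-0.23, adjusted p = 0.169), Sos2 (-0.27, adjusted p = 0.214) and the phosphatase gene Ptpn11 (0.20, adjusted p = 0.221) had the lowest p in PGR-A OE, and Sos2 differed by -0.21 in PGR-B OE (adjusted p = 0.532), by the edgeR quasi-likelihood test. Of the 12 ERK-responsive genes 8 were positive in PGR-A OE (median 0.14) and 5 in PGR-B OE (median -0.06). Over all genes 50.1% and 48.8% were positive in these comparisons. The listed genes that were lower in PGR-A OE were Fosl1 (-0.66), Egr1 (-0.29), Fos (-0.23) and Ier3 (-0.19). Phlda1 was at 8.11 ± 1.13 CPM in controls and 11.6 ± 3.06 CPM with PGR-A OE (0.52, adjusted p = 0.229), and the ETS factor gene Etv5 at 15.9 ± 2.50 and 19.1 ± 2.43 CPM (0.27, adjusted p = 0.374). Etv4 was at 1.34 ± 0.506 CPM in controls, 1.99 ± 0.794 CPM with PGR-A OE and 0.895 ± 0.308 CPM with PGR-B OE (SD, n = 4), with no overlap between the overexpression groups (-1.15, adjusted p = 0.450 by edgeR). Between those groups 2.35% of all genes tested were lower without overlap in PGR-B OE.

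Patterns most like those of the members were ranked by Pearson's r of log2 CPM over the 12 libraries, as a description across libraries that share the group differences and the tissue makeup. Nearest to Hbegf were Sptb, a spectrin gene (r = 0.95, Spearman's rho = 0.84), Ltbp2, an extracellular matrix gene (r = 0.91, rho = 0.90), and Actn1, an actin crosslinker gene (r = 0.90, rho = 0.92). Sptb was at 2.17 to 3.35 CPM in controls, 3.85 to 7.40 CPM with PGR-A OE and 2.74 to 4.74 CPM with PGR-B OE. It did not overlap between PGR-A OE and control, which its choice by r to Hbegf over these libraries favours. Unlike Hbegf, it overlapped between PGR-A OE and PGR-B OE. Actn1 was at 495 to 624 CPM in controls and 665 to 721 CPM with PGR-A OE. Ltbp2 overlapped, with 15.7 to 48.8 CPM in controls and 39.4 to 113 CPM with PGR-A OE.

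For the other members the nearest genes had r from 0.82 to 0.97. Among the nearest to Erbb3 were Specc1 and Map3k9, and Erbb2 was nearest to Gprc5c, Zfp185 and Socs7, and Erbb4 to Fosl2, Tprgl and Atp6v1b2. Specc1 had the closest match of all (r = 0.97, rho = 0.99) and, like Erbb3, was highest in a PGR-B OE library (43.2 CPM). Egfr was nearest to Ccdc162, Rhbdl1 and Arhgef12, Tgfa to Ubox5, Tmem144 and Rhou, and Btc to Prrx1, Bmi1 and Bik. Ereg was nearest to Abca13, Cyp26b1 and Serpinb9b, and Egf to Apobec1, Tbcd and Hlx. No member was among the 3 nearest genes of another.

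**Figure D5:**
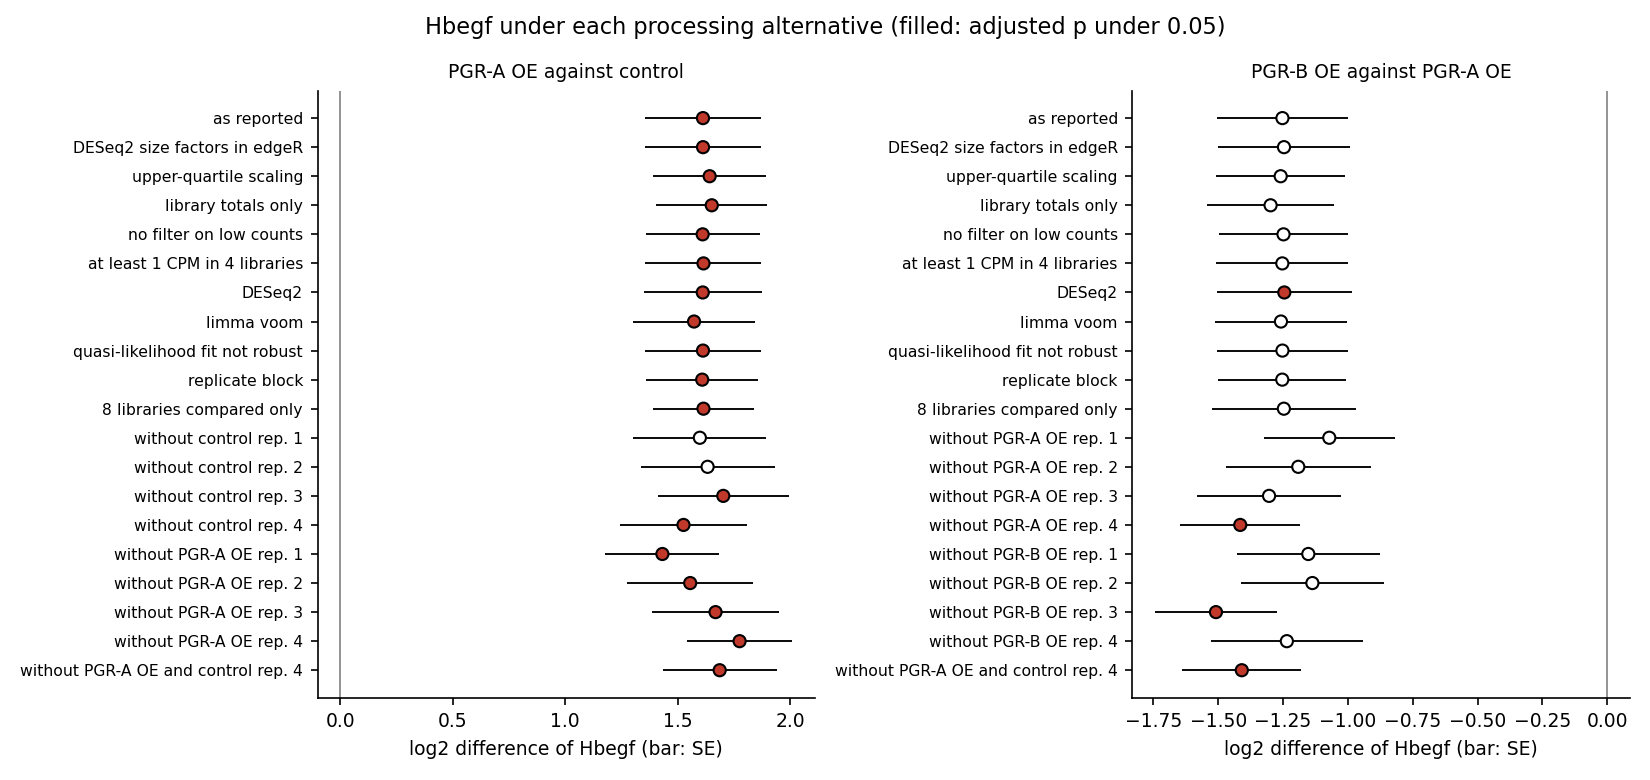
Log2 difference of Hbegf (point) with its SE (line) as reported and under each of 19 alternatives, for PGR-A OE relative to control (first) and PGR-B OE relative to PGR-A OE (second); filled points have an adjusted p under 0.05. The first stays between 1.43 and 1.78 and is open without control replicate 1 or 2, and the second stays between -1.51 and -1.07 and is filled under 4 alternatives.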

How the data were processed

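From their reads the authors deposited a single table of raw gene counts, with each gene's length in bases, which served here for levels per length in place of an annotation length. The submitters' processing notes list Bowtie2 (2.2.5), STAR (2.7.0f), featureCounts in Subread (1.6.4) and DESeq2, and name mm10 and GRCm38; what each was used for, the annotation and any use of strand were not given in the sources used here. Values of Ereg, Tgfa, Egf and Erbb2 are therefore uncertain, since exons of a gene on the opposite strand overlap theirs. The same holds for Nrg1, Nrg4, Adam17, Lrig1, Spry1, Fosl1 and Phlda1 among the pathway genes named.

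In R 4.3.3, edgeR 4.0.16 kept 15561 genes (filterByExpr), scaled libraries by TMM and fitted all 12 libraries in 1 robust quasi-likelihood model. Benjamini-Hochberg adjustment ran over every gene tested, and 0.05 was the threshold. CPM uses TMM-scaled totals; SE is the log2 difference divided by the root of F, and intervals use the fit's degrees of freedom. DESeq2 1.42.0 and limma 3.58.1 (voom) were alternatives, with other scalings, filters, samples and each library left out. The fit was tested on simulated counts. Coordinates come from GENCODE for GRCm38. No pair of libraries in a group agreed within sampling noise.

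Members and lists were chosen with earlier results of these data known. All members are named; from each pathway list, up to 3 genes with the lowest p in a comparison; and for each tested member, the 3 named genes with the highest r (prior count 2, mean of at least 1 CPM). In the ERK-responsive list the genes lower in PGR-A OE are named as well. As wholes the lists were read only by counts and medians, and the genes named from them by their own values. A few genes that this rule names are not reported here. The 12 same-numbered pairs of libraries had correlated deviations from -0.26 to 0.19, so the replicate numbers were not taken as pairs.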

Additional observations from a re-analysis of the deposited data

Results flagged for a closer look

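Of 30 sets of 4 libraries (10 genes in 3 groups), 3 held a library whose gap to the next was above Dixon's 95% critical value, where chance flags about 1 in 20. Erbb4 was at 21.3 CPM in control replicate 1 and at 12.3 to 13.2 CPM in the other 3 controls. Erbb2 was at 96.8 CPM in PGR-B OE replicate 3 and at 67.7 to 72.5 CPM in the other 3 libraries of its group; that library also held the highest epithelial marker sum, 2413 CPM. Areg was at 0.0301 CPM, which is 1 count, in PGR-A OE replicate 2 and at 0 in the other 3; with 3 libraries at 0 a single count is always flagged, so this one does not bear on the chance rate.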

How the results depend on the processing

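Of 507 values of members under alternatives, 471 kept their direction and side of the threshold, 30 changed sign, 4 gained a call and 2 lost one; both losses and all gains were of Hbegf. Hbegf in PGR-A OE against control stayed between 1.43 and 1.78, and past the threshold under 17 of 19 alternatives. With each library left out in turn, 0 to 1 members passed in PGR-A OE relative to control and between the overexpression groups, where 1 also passed by DESeq2 and without replicate 4 of both control and PGR-A OE. No value that changed sign had passed. With a library left out, Ereg ran from -0.62 to 0.086 in PGR-A OE, -0.14 to 0.16 in PGR-B OE and -0.057 to 0.65 between PGR-B OE and PGR-A OE, Btc from -0.21 to 0.076 in PGR-A OE, Erbb2 from -0.10 to 0.12 and Erbb4 from -0.41 to 0.035 in PGR-B OE, and Erbb3 from -0.23 to 0.12 and Erbb4 from -0.015 to 0.33 between PGR-B OE and PGR-A OE. Without replicate 4 of both control and PGR-A OE, Ereg was 0.17 in PGR-A OE and -0.052 between PGR-B OE and PGR-A OE, Erbb2 -0.040 in PGR-B OE, and Erbb3 -0.041 between PGR-B OE and PGR-A OE. Btc in PGR-A OE was 0.011 with upper-quartile scaling and 0.022 with library totals only. Erbb3 between PGR-B OE and PGR-A OE was -0.0042 with upper-quartile scaling, -0.038 with library totals only, -0.039 by limma voom and -0.0098 with the replicate block.

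With the replicate number as a block, Hbegf was at 1.61 in PGR-A OE (adjusted p = 0.0338 by edgeR) and -1.25 between PGR-B OE and PGR-A OE (adjusted p = 0.229); 11 genes then passed in the latter comparison, against 18 without the block. Of all genes, 102 passed in PGR-A OE relative to control, 571 by DESeq2, 63 in a fit of the 8 libraries compared and 32 to 99 with a library left out. In PGR-B OE against control it was 48, then 217 by DESeq2, 91 without both replicates 4 and 22 to 48 with a library left out. Between PGR-B OE and PGR-A OE it was 18, then 124 by DESeq2, 10 in a fit of the 8 libraries, 38 without both replicates 4 and 11 to 31 with a library left out. The cause of these shifts was not tested. Depth limits Areg, Egf and Ereg, which had at most 43 counts in a library; Ereg and Egf had no value with a filter of at least 1 CPM in 4 libraries.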

Other observations

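Among the 4 PGR-A OE libraries, Hbegf stood in the opposite order to Pgr, a pattern chosen after the values were seen and not tested. Replicates 1 to 4 held 18.1, 15.0, 11.9 and 8.61 CPM of Hbegf and 166, 185, 194 and 255 CPM of Pgr. Across groups the order differed, since PGR-B OE libraries held 188 to 248 CPM of Pgr with 4.24 to 8.38 CPM of Hbegf.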
